A study of Canis lupus familiaris with 2 samples.

Results

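Complement, serum amyloid and chemokine transcripts were described here in canine left superior fat pads (LSFPs), which lie on the atrium of the heart. The genes were C3, C1S, SAA1, CXCL14 and CCL2, and every probe set annotated to one of them was taken. That gave 9 probe sets of the 1628 in the table and 5 genes of the 823 that could be named. The genes had been selected on these same differences between the arrays, so the values below are a description and not a test of whether these genes changed.

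The samples were total RNA from the LSFPs of mongrel dogs of either sex. The dogs of the lenti-control group were injected with a lentivirus that carries a scrambled sequence, and those of the lenti-miR-206 group with a lentivirus that overexpresses miR-206. In each group the RNA of 3 dogs was combined and hybridized to 1 Affymetrix canine array, so the study has 2 arrays, no replicates and no measure of the spread between dogs. Both groups were sampled 2 weeks after infection as the paper describes its lentivirus groups, although only the label of the lenti-miR-206 array states this time. Atrial tachypacing (A-TP) is not mentioned in the labels, and both pools were taken to be without it. The paper calls the dogs of its A-TP experiment adult and gives no age for those that received lentivirus. The promoter of the lentivirus and the share of infected cells are not stated in the sources. The fat pads hold fat cells, nerves, vessels and adjoining heart muscle. The fat cell hormone adiponectin (ADIPOQ) had a log2 intensity of 13.2 on the lenti-control array and 11.3 on the lenti-miR-206 array with its brighter probe set, and the muscle myosin MYH7 had 11.8 and 12.9. Signal of both tissues was therefore present in both pools.

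Complement is a cascade of plasma proteins that marks particles and damaged cells for removal. C1S is the protease of the first component that starts the classical pathway, and C3 is the central component on which all pathways converge. SAA1, serum amyloid A, is an acute phase apolipoprotein. Chemokines are small secreted proteins that guide leukocytes: CCL2 attracts monocytes, and CXCL14 is made in resting epithelial and stromal tissue and also by fat. The liver supplies much of the C3 and SAA1 in plasma, but fat and connective tissue also make these products.

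All 9 probe sets of the 5 genes were at least 2-fold lower on the lenti-miR-206 array, against 405 of 1628, or 24.9%, of all probe sets. At a threshold of 3-fold the counts were 3 of 9 and 140 of 1628, or 8.60%. Since the genes were selected on these values, nothing is read from either count. The table holds only probe sets that differ by at least 2-fold between the arrays, so a probe set of these genes with a smaller difference would not be among the 9. All differences are given as lenti-miR-206 minus lenti-control. Their median on the log2 scale was -1.27 over the 5 genes, with each gene represented by its probe set of the highest mean. It was -1.49 over the 9 probe sets, 1.21 over all probe sets and -1.33 over the 405 lower ones. The genes were selected on these values, so the sign opposite to that of the whole table is not a result. In pooled tissue, fewer cells of a type and less RNA per cell cannot be told apart.

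CXCL14 showed by far the greatest difference of the 5 genes. The brighter of its probe sets, which has the suffix s_at, read a log2 intensity of 10.06 on the lenti-control array and 6.63 on the lenti-miR-206 array. This was a log2 difference of -3.42, or 10.7-fold lower, which left 9.31% of the lenti-control level. A further probe set, without that suffix, read 9.76 and 6.68, a log2 difference of -3.08, or 8.46-fold lower. Both probe sets thus read a bright signal in the lenti-control dogs and a much weaker one after lenti-miR-206. They were the 6th and the 11th lowest of all 1628 differences, and CXCL14 was the 5th lowest of the 823 genes. Its lenti-miR-206 values lay 3.68 and 3.73 log2 units above the lowest value of the table, 2.95, and above the lower quartile of all values, 5.97, but no detection calls were used, so the weak values are not shown to be above background.

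The complement component C3 was about 3-fold lower. The brighter probe set read 10.65 on the lenti-control array and 9.08 on the lenti-miR-206 array, a log2 difference of -1.57, which left 33.7% of the lenti-control level. The dimmer probe set read 8.81 and 6.95, a log2 difference of -1.85, which left 27.7%. Neither carries the suffix s_at or x_at, which marks probe sets that can hybridize to several transcripts. The protease C1S was read by a single probe set, which does carry the suffix s_at. Its values were 10.89 and 9.69, a log2 difference of -1.20, or 2.29-fold lower. This was the smallest difference of the 9 probe sets.

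SAA1 was read by 3 probe sets. The brightest read 8.29 on the lenti-control array and 7.07 on the lenti-miR-206 array, a log2 difference of -1.22, or 2.33-fold lower. The x_at probe set read 8.05 and 6.56, a log2 difference of -1.49, or 2.81-fold lower. The a_at probe set, of a type that covers alternative transcripts of 1 gene, read 6.74 and 5.42, a log2 difference of -1.32, or 2.49-fold lower. The last of these values was the only one of the 18 below the lower quartile of the table. The 3 probe sets share 1 identifier stem and are annotated to the same sequence record, so they are not independent readings of the gene. The symbol SAA1 is that of the platform annotation, since its Entrez identifier is not among those of the dog assembly UU_Cfam_GSD_1.0 that was used for names. In that assembly SAA1 has another identifier, and next to it lie LOC403585 and LOC751814, both listed with the synonym SAA. Which of these gene copies gave the signal was not tested.

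The chemokine CCL2 was read by a single probe set, also of the s_at type, with 8.06 on the lenti-control array and 6.80 on the lenti-miR-206 array. The log2 difference was -1.27, or 2.40-fold lower, which left 41.6% of the lenti-control level. CCL2 and CXCL14 were therefore both lower, but by differences that lay 2.16 log2 units apart.

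**Figure D1:**
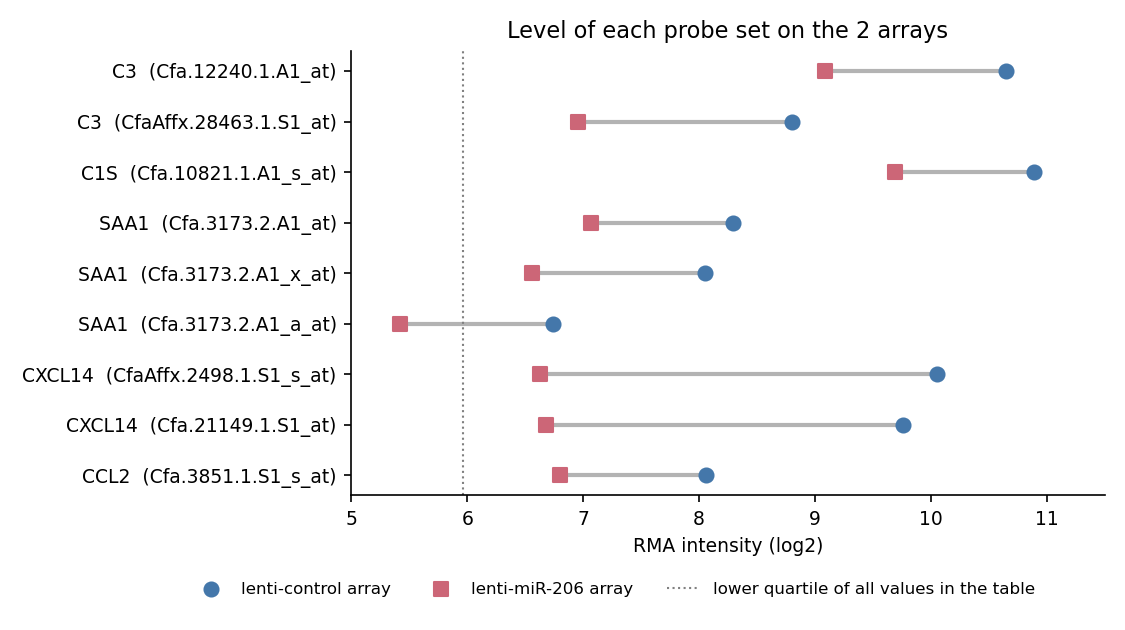
RMA log2 intensity (x axis) of the 9 probe sets of C3, C1S, SAA1, CXCL14 and CCL2 (y axis, gene and probe set) on the lenti-control array (blue circles) and the lenti-miR-206 array (red squares), 1 array per group and no error bars, with the lower quartile of all values as a dotted line. Each probe set was lower on the lenti-miR-206 array, the CXCL14 probe sets read 6.63 and 6.68 there against 10.06 and 9.76, and 1 SAA1 value, 5.42, lies below the lower quartile of 5.97.

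The probe sets of a gene gave differences of like size. The range of log2 differences between probe sets was 0.28 for C3, 0.27 for SAA1 and 0.34 for CXCL14. Among all 72 genes that were lower with more than 1 probe set, the median range was 0.31, with quartiles of 0.15 and 0.58. The 3 genes lay near the middle of these, with 32 of 72 ranges smaller than that of C3, 31 smaller than that of SAA1 and 39 smaller than that of CXCL14. Among the 7 of them whose lowest difference was below -3, a limit chosen after the values were seen, CXCL14 had the smallest range, and the ranges of the others ran from 0.43 for the fatty acid synthase FASN to 2.02 for the peptide CCK. For C3 and SAA1 the brightest probe set gave the smallest difference, whereas for CXCL14 it gave the greatest. Over all genes with several probe sets the brightest gave the smallest difference in 142 of 269. Only probe sets past 2-fold are listed, so the agreement can be overstated.

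**Figure D2:**
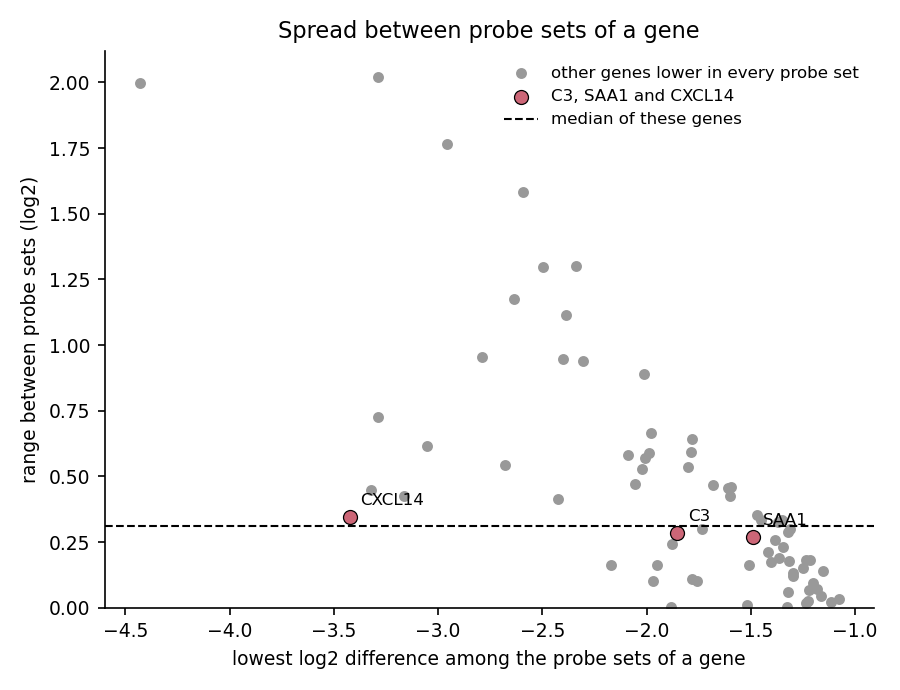
Range between the probe sets of a gene (y axis, log2) against the lowest log2 difference among them (x axis) for the 72 genes with more than 1 probe set, all of them lower on the lenti-miR-206 array, where red points are C3, SAA1 and CXCL14, grey points are the other genes and the dashed line is the median range of 0.31. CXCL14 lies far to the left at -3.42 with a range of 0.34, and C3, SAA1 and CXCL14 all lie close to the median range.

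In order of size the differences were -3.42 for CXCL14, -1.57 for C3, -1.27 for CCL2, -1.22 for SAA1 and -1.20 for C1S. Among the 212 lower genes, 207 had a smaller decrease than CXCL14, 146 than C3, 94 than CCL2, 84 than SAA1 and 73 than C1S. CCL2, SAA1 and C1S lay within 0.070 of each other, less than the range of 0.27 between the probe sets of SAA1, and their order was therefore not resolved. C3 lay 0.30 below CCL2, close to its own range of 0.28, and the x_at probe set of SAA1 lay only slightly above the brighter one of C3. CXCL14 lay 1.86 below C3, more than any range between probe sets of these genes. These comparisons refer to probe sets on the same arrays, and the spread between dogs is unknown.

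The size of each difference depended on the control reference. The 13 listed probe sets for bacterial spike-in transcripts were themselves lower on the lenti-miR-206 array, with a median log2 difference of -1.08 and a range from -1.17 to -1.001. The 5 probe sets for GAPDH controls were higher, with a median of 1.31 and a range from 1.16 to 1.43. The spike-in transcripts are not dog RNA, whereas GAPDH is a dog gene. Whether equal amounts of spike-in were added, and whether GAPDH was unchanged between the pools, is not known. Controls with smaller differences would not be in the table. Relative to the spike-in median the log2 difference was -0.12 for C1S, -0.15 for SAA1, -0.19 for CCL2 and -0.49 for C3. C1S, SAA1 and CCL2 thus kept 92.1%, 90.3% and 87.7% of the lenti-control level on that scale, and C3 kept 71.1%, with the brightest probe set of each gene. The other probe sets lay further from 0, at log2 differences of -0.42 and -0.24 for SAA1 and -0.78 for C3. CXCL14 remained lower by -2.35 with its brighter probe set, or 5.09-fold, and by -2.004 with the other, or 4.01-fold. On that scale 2 of the 9 probe sets, both of CXCL14, kept a decrease of at least 2-fold, against 60 of 1628, or 3.69%, among all probe sets. Relative to the GAPDH median all 9 were at least 3-fold lower, as were all 405 lower probe sets of the table. The 9 differences ran from -2.50 for C1S down to -4.73 for the brighter probe set of CXCL14. Taking away the GAPDH median cannot turn a lower probe set higher. With the spike-in reference all 9 stayed below 0, as did 351 of the 405 lower probe sets. The differences of C1S, CCL2 and the brightest probe set of SAA1 were close to those of the spike-in controls.

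**Figure D3:**
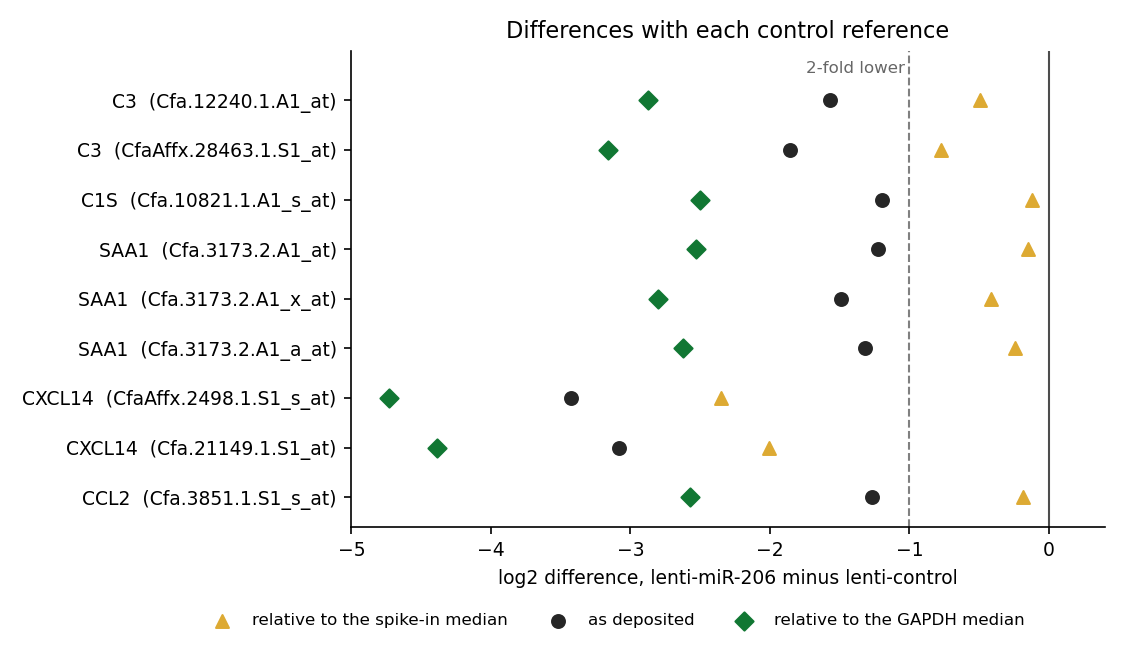
Difference in log2 intensity between the arrays, taken as lenti-miR-206 minus lenti-control (x axis), of the 9 probe sets (y axis, gene and probe set) as deposited (black circles), relative to the median of the 13 spike-in controls (yellow triangles) and relative to the median of the 5 GAPDH controls (green diamonds), with a solid line at no difference and a dashed line at a decrease of 2-fold. Relative to the spike-in controls, the CXCL14 probe sets at -2.35 and -2.004 stay beyond the dashed line and the other 7 lie between it and 0.

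Few other genes of these pathways were in the table. Of 21 complement components 4 were. Besides C3 and C1S, which had been selected for their differences, these were C1R, the partner protease of C1S, and C6, a component of the membrane attack complex, and both lay near the 2-fold limit of the table. C1R read 8.78 and 7.78 in the same order of arrays, a log2 difference of -1.004. C1R lies next to C1S in the dog assembly, and the proteins act together in the first component. Their differences lay 0.19 apart. C6 read 6.28 and 5.19, a log2 difference of -1.09, and its lower value was below the lower quartile. Relative to the spike-in median C1R turned slightly higher, with 0.073, and C6 was at -0.013. No gene of 10 complement regulators and none of 10 complement receptors was in the table.

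Of 23 acute phase proteins SAA1 alone was in the table, and of 35 chemokines CXCL14 and CCL2 alone. The chemokine genes CCL7, CCL8 and CCL13, which precede CCL2 in the assembly, were not. None of 23 chemokine receptors and none of 24 inflammatory cytokines and their receptors were in it either. Of 18 transcription factors and feedback genes of inflammation only PTPN2, a phosphatase that limits cytokine signalling, was listed. It read 7.85 and 3.98, a log2 difference of -3.87, and the lower value is near the lowest of the table. In all, 8 of 164 genes in these lists were in the table. Of these, 5 are the genes selected for their differences, and the 3 beside them, C1R, C6 and PTPN2, were lower, against 212 of 823, or 25.8%, of all named genes. The other 156 are not analysed here. A gene outside the table may have differed by less than 2-fold or may have had no probe set, and the lists were chosen with earlier results of these data known.

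The genes with the most similar difference were sought among those whose higher value reached the median of all values, 7.21. For CXCL14 none lay within 0.1 log2 units, and the nearest were PTPN2, with a gap of 0.45, and the glial protein S100B, with a gap of 0.47. S100B read -2.96 with its brighter probe set but -1.19 with the other. The other members had many close genes, between 20 and 37 within 0.1. The nearest were BBLN and VKORC1L1 for C3, NADK and TMEM120A for C1S, SGK2 and GHR for SAA1, and ARL6IP1 and DGKK for CCL2. With 2 arrays this likeness is that of a single difference.

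Markers of fat cells and connective tissue were lower in the same pool, and those of heart muscle were higher. Of 27 adipocyte genes 16 were in the table, 15 of them lower, with a median log2 difference of -1.76. The sum of their linear intensities in the lenti-miR-206 pool was 29.5% of that in the lenti-control pool. The lowest were the lipid droplet protein CIDEA with -2.87, FASN with -2.74 and CIDEC with -2.47, and UCP1 alone was higher, with 2.07. With the brightest probe set of each gene, the differences of C3, C1S, SAA1 and CCL2 were smaller than the adipocyte median. On that basis 10 of the 16 adipocyte genes were lower than C3. The dimmer probe set of C3, however, read -1.85, a greater decrease than that median. CXCL14 lay below all 16, although the dimmer probe sets of CIDEA and FASN read -3.32 and -3.16, between the values of the CXCL14 probe sets. Of 20 genes of fibroblasts and stroma 6 were in the table, all 6 lower, from -1.42 for fibronectin (FN1) to -1.08 for the fibrillin FBN1, with a median of -1.28 and a summed intensity of 42.9% of that in the lenti-control pool. With the brightest probe set of each gene, C1S, SAA1 and CCL2 lay within the range of these 6 genes, and C3 and CXCL14 below it. The x_at probe set of SAA1, at -1.49, also lay below that range. Of 20 cardiomyocyte genes 16 were in the table and all 16 were higher, with a median of 1.55 and a summed intensity of 277% of that in the lenti-control pool. Relative to the spike-in median 2 of the 15 lower adipocyte genes turned higher, and relative to the GAPDH median 2 of the 16 cardiomyocyte genes turned lower. The 6 fibroblast and stroma genes stayed lower with the spike-in reference but came close to 0. Their median was then -0.20, with -0.34 for FN1 and -0.0071 for FBN1. The paper describes the removal of fat before RNA extraction for dogs with and without A-TP in its miRNA sequencing, and does not state this step for the dogs that received lentivirus. The part of the tissue makeup in the differences of the 5 genes was not tested.

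Markers of leukocytes did not follow the 5 genes in 1 direction. Of 18 macrophage and monocyte genes 3 were in the table. LYZ (lysozyme) was higher by 1.13 and CYBB, the phagocyte oxidase subunit, by 1.06, while SPP1 (osteopontin) was lower by -1.02. Relative to the GAPDH median LYZ and CYBB turned lower, with -0.18 and -0.25, and relative to the spike-in median SPP1 turned higher, with 0.056. No gene of 10 neutrophil and 16 lymphocyte genes was in the table, and neither was any of 10 mesothelial and 10 hepatocyte genes. Of 7 mast cell genes HPGDS alone was listed, with 3.31, and of 12 endothelial genes MMRN1 alone, with -1.15. The lenti-control values of CYBB, 5.28, and HPGDS, 4.44, were below the lower quartile of the table. So were both values of MMRN1, 5.72 on the lenti-control array and 4.57 on the lenti-miR-206 array.

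**Figure D4:**
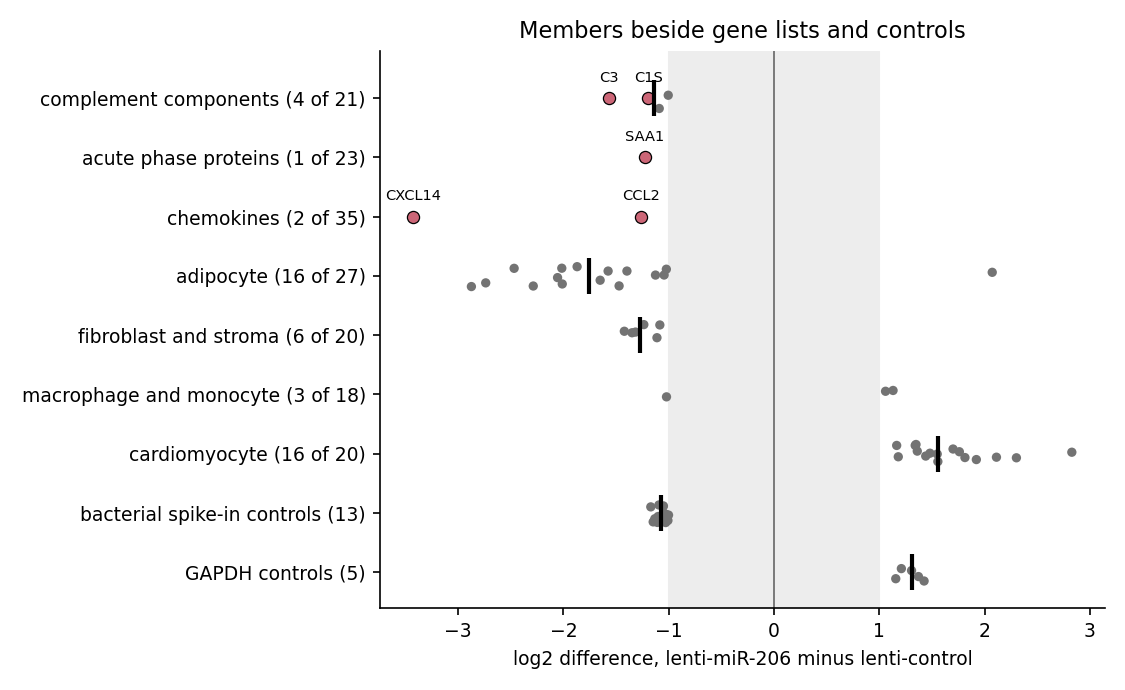
Difference in log2 intensity between the arrays, taken as lenti-miR-206 minus lenti-control (x axis), for genes of 7 lists and for control probe sets (y axis, with how many of the list are in the table, or how many controls), where each point is a gene represented by its brightest probe set or a control probe set, red points are the 5 genes described, black bars are medians of rows with more than 3 points, and the grey band from -1 to 1 marks differences under 2-fold, which the table leaves out. CXCL14 lies at -3.42, below every adipocyte gene so represented, while C1S, SAA1 and CCL2 lie between -1.27 and -1.20, within the range of the fibroblast and stroma genes, and C3 lies below that range at -1.57.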

How the data were processed

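The data are 2 Affymetrix canine arrays, 1 for the pooled RNA of 3 lenti-control dogs and 1 for that of 3 lenti-miR-206 dogs. The authors deposited log2 intensities that, per the labels, were made with RMA, which corrects background, normalizes arrays and summarizes the probes of a set. Its version, the genome build and the set of arrays normalized together are not stated in the labels or the paper. Differences of dim and of very bright probe sets can be compressed in array intensities. The table lists 1628 probe sets and 19 controls, each with a log2 difference of at least 1.00. No detection calls were used, and the single array per group limits the precision.

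Differences and folds were computed with pandas 2.3.3 and numpy 2.4.6 under Python 3.11.15 and drawn with matplotlib 3.10.9. Simulated data without noise were used to check only the choice of probe set per gene and a count of lower genes. Of the probe sets, controls included, 1184 had 1 gene symbol in the platform annotation, 22 several and 441 none. Symbols were updated through Entrez identifiers for 1104, and 80 kept theirs. A gene was represented by its probe set with the highest mean. The genes named are the 5 members, all genes of the 8 pathway lists in the table, the 2 genes nearest in difference to each member, and up to 3 at each end of the cell type lists. ADIPOQ, CCK and the genes of the closing observations were chosen after their values were seen. The members and lists were chosen with earlier results of these data known. With 1 array per group there is no test and no p-value. The alternatives were other choices of probe set, a 3-fold threshold, filters on dim and on s_at and x_at probe sets, and the spike-in and GAPDH references.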

Additional observations from a re-analysis of the deposited data

How the results depend on the processing

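C3, C1S, SAA1, CXCL14 and CCL2 stayed lower under each alternative, but the GAPDH reference can only lower them further, and probe sets of these genes with differences under 2-fold are outside the table. Taking the dimmest probe set or the mean of all probe sets, or leaving out dim, s_at and x_at probe sets, moved the difference of each gene that could be computed by less than 1.5-fold. C1S and CCL2 have no other probe set in the table and gave no value without s_at and x_at probe sets. With the spike-in and the GAPDH reference, respectively, the log2 differences were -0.49 and -2.87 for C3, -0.12 and -2.50 for C1S, -0.15 and -2.53 for SAA1, -2.35 and -4.73 for CXCL14, -0.19 and -2.57 for CCL2, and -0.19 and -2.57 for the median of the 5 genes. Of their 9 lower probe sets, 3 were at least 3-fold lower, 5 were left without s_at and x_at probe sets, and 2 kept a 2-fold decrease with the spike-in reference. The 405 lower probe sets of the whole table became 140 at 3-fold, 247 without s_at and x_at probe sets, 257 without dim probe sets and 60 with the spike-in reference. No paired analysis was possible because each group has 1 array. The spread between dogs is unknown, and values near the lowest of the table may be background.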

Other observations

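Some further secreted and immune genes outside the lists are given as values only, since they were chosen after their values were seen. Annexin A1 (ANXA1), a protein that limits inflammation, had log2 differences of -1.51, -1.35 and -1.45 with its 3 probe sets. KLKB1, the plasma prekallikrein of the contact system, was lower by -1.75, with a lenti-miR-206 value of 4.97, below the lower quartile of the table. The lectin REG3A had -1.45 and -2.40 with 2 probe sets, and the fibrinogen-like protein FGL2 had -1.09 and -1.11. The REG3A probe set with -2.40 had a lenti-miR-206 value of 5.40, also below the lower quartile. The metallothionein MT2A had -1.64, S100A4 had -1.68 and RARRES1 had -2.12. The nitric oxide synthase NOS2 had -1.01, which turned to 0.068 relative to the spike-in median. Its lenti-miR-206 value of 5.27 was below the lower quartile as well. Relative to the spike-in median RARRES1 was still 2-fold lower, with -1.04, and FGL2 was close to 0, with -0.015 and -0.038. Higher were SERPINB2, the plasminogen activator inhibitor of macrophages, with 1.45 and 1.47 in its 2 probe sets, and the pantetheinase VNN1 with 2.0. The membrane protein TMEM176B had 1.16, which turned to -0.15 relative to the GAPDH median. These 3 genes had lenti-control values below the lower quartile of the table.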
